A study of Rattus norvegicus with 84 samples.

Results

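The cytosolic ribosomal protein (RP) genes encode the protein parts of the cytosolic ribosome. Members were chosen by symbol from the deposited mRNA count table, as the numbered Rpl and Rps genes, Rplp0 to Rplp2 and Rpsa, without the Rps6k kinases, and the table writes each symbol with the prefix "gene-". This gave 83 of the 18782 annotated genes, 51 of the large subunit and 32 of the small subunit. RNA had been sequenced from extracellular vesicles (EVs), membrane-bound particles that cells release, of the right brain hemisphere and of the plasma of wild-type male Sprague-Dawley rats. The rats formed 7 groups of 3, and each of the 21 rats gave 1 brain and 1 plasma mRNA library, so that 42 of the 84 samples of the series were used and the microRNA libraries were not used here. The healthy group consisted of rats without stroke, whose age the sources used here do not give. The other groups were rats of 8 to 12 weeks with the right middle cerebral artery occluded for 90 min and then reopened. On day 3 after stroke the control groups received saline and the hNSCs groups received 200000 human neural stem cells (hNSCs) from a line of fetal telencephalon, both through the common carotid artery, and rats of each kind were killed on day 4, 10 or 31 after stroke. There was no sham-operated group, so stroke cannot be told apart from its surgery and the saline injection, and all hNSCs came from the same line. The supplementary methods describe the cells as given in glucose buffer and the controls as given saline only. The cells therefore cannot be told apart from their carrier fluid.

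Ribosomal proteins and ribosomal RNA together form a small subunit, which reads the mRNA, and a large subunit, which joins the amino acids. Their mRNAs are among the most abundant of a cell, and most of them begin with a short run of C and T bases, the terminal oligopyrimidine (TOP) tract, through which the kinase complex mTORC1 and its partner Larp1 set their translation. Neurons and glia also carry such mRNAs into their processes for local protein synthesis, and in blood young red cells and platelets keep part of theirs after the nucleus is lost.

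Values below are CPM, counts relative to the annotated total of a library after scaling, or FPKM, fragments relative to gene length and library size, which allows levels of different genes to be compared. To be called, a gene had to differ more than 1.5-fold with an edgeR adjusted p under 0.05. Brain libraries held 13221461 to 37651652 counts and plasma libraries 11878367 to 49824782. Annotated genes took 3.18% to 51.9% of the counts in brain, with a median of 20.6%, and 45.1% to 75.6% in plasma, so the brain values rested on fewer counts. RP genes have many processed pseudogenes, and how reads with several positions were counted is not given in the sources used here, so the value of a single member is less certain than that of the set.

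Before the results, 2 brain libraries stood apart. In the control group of day 10, replicate 2 had the highest value of its group for 78 of 83 members, and its summed member level was 37511 CPM against 3671 and 6992 in replicates 1 and 3. In the hNSCs group of day 10, replicate 3 had 3.18% of its counts on annotated genes, 6190 detected genes and 32 detected members. EdgeR calls and medians of the RP genes on day 10 are given with and without them, while DESeq2 was run on all libraries only. A further brain library, hNSCs day 4 replicate 1, had the lowest value of its group for 72 of 83 members, with 53 members and 8828 genes detected. It is not counted among the 2 and was left out only in turn, as every library was.

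RP mRNA made up a far larger share of plasma-derived than of brain-derived EV mRNA. Over 21 libraries each, the members held 10.6% ± 2.21 (SD) of annotated-gene counts in plasma and 0.896% ± 0.794 in brain, an 11.8-fold difference of the means. The lowest plasma library, at 7.40%, was 2.08-fold above the highest brain library, at 3.56%, so the tissues did not overlap. Of all counts, annotated or not, the members held 4.24% to 10.3% in plasma and 0.0126% to 0.516% in brain. The difference was larger on that scale. Between 32 and 83 members were detected in a brain library, with a median of 78, and 80 to 83 in a plasma library. In all, 23 members were detected in every brain library and 80 in every plasma library.

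Rpl35, Rplp1, Rpl26 and Rps23 were among the most abundant members per length in both tissues. In brain the median level was 41.9 FPKM for Rpl35, which lies near the peptide exit tunnel, 32.8 for Rplp1, a protein of the stalk that recruits elongation factors, 19.8 for Rpl26 and 19.04 for Rps23, which lies at the decoding center. In plasma Rplp1 was at 2889 FPKM, Rps23 at 1931, Rpl26 at 1874 and Rpl35 at 1614. There these genes ranked 5, 8, 9 and 12 among all annotated genes, and in brain Rpl35 ranked 8 and Rplp1 ranked 11. Levels in brain spread widely, from 4.18 to 107 FPKM for Rpl35 and from 0.524 to 109 FPKM for Rps23 over the 21 libraries, so the order of these genes within brain was within their spread.

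The median member had 4.74 FPKM in brain (quartiles 2.02 and 8.73) and 439 FPKM in plasma (quartiles 259 and 632), against 0.185 and 0.510 FPKM for the median annotated gene. Among the 100 most abundant annotated genes, 14 were members in brain and 56 in plasma. The levels of the members varied together between the tissues, with a Spearman rho of 0.766 across 83 members, given as a description since the genes of a library are not independent. Paralogs were among the least abundant members. Rpl3l, the striated-muscle form of Rpl3, was at 0 in 19 brain and 14 plasma libraries, and Rpl10l, the testis form of Rpl10, had a median of 0.00543 FPKM in brain and 0.339 in plasma. Rps27l had a median of 0 in brain, where 15 libraries were at 0, and of 4.26 FPKM in plasma. Rpl30l1, whose role is not described here, was at 0 in 17 brain libraries, and Rpl7l1, a paralog of Rpl7, had 5.53 FPKM in plasma. Rpl22l1, a paralog of Rpl22, had 0.0470 FPKM in brain. Of the 77 members other than these 6, Rpl35a was lowest in both tissues, at 0.102 FPKM in brain and 16.9 in plasma.

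**Figure D1:**
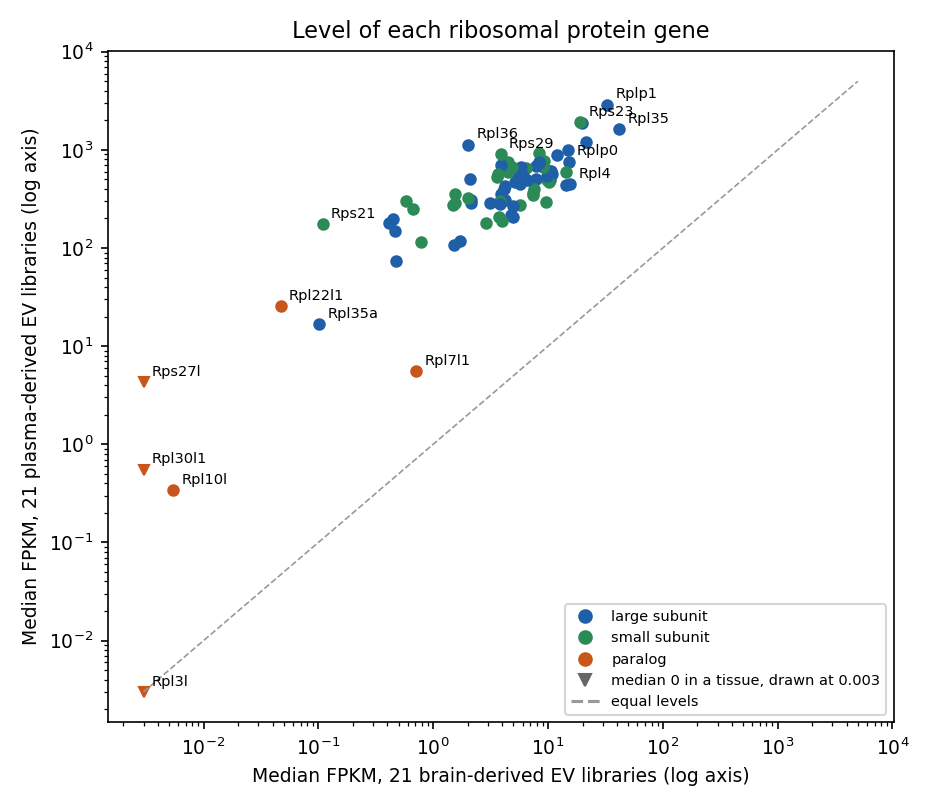
Median FPKM of each of the 83 members over 21 brain-derived (horizontal log axis) and 21 plasma-derived (vertical log axis) EV libraries, with large-subunit members in blue, small-subunit members in green and paralogs in orange; medians of 0 are drawn as triangles at 0.003 and the dashed line marks equal levels. Every point with a median above 0 lies above the dashed line, from 0.339 FPKM for Rpl10l to 2889 for Rplp1 in plasma.

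Nearly every member was lower in brain-derived than in plasma-derived EVs. Rplp0, the stalk protein that anchors Rplp1 and Rplp2, had 85.0 to 1784 CPM in brain (median 304) and 2827 to 7332 CPM in plasma (median 3721), on a scale common to both tissues. Rpl4, a protein of the exit tunnel wall, had 106 to 989 CPM in brain (median 309) and 2141 to 4143 in plasma (median 3005). Neither gene's brain and plasma libraries overlapped. In the comparison of brain with plasma averaged over the 7 groups, Rplp0 had a log2 fold change of -3.41 (SE 0.19), Rplp1 of -4.52 (SE 0.24), Rplp2 of -4.39 (SE 0.48) and Rpl4 of -3.13 (SE 0.15). By edgeR 81 of 83 members were called lower and 0 higher, while 25.3% of the 16945 genes tested were called lower and 29% higher. At an unadjusted p under 0.05 there were also 81 lower and 0 higher, against 58% of all genes in either direction, and DESeq2 called 81, against 66.4% of all genes. The exceptions were Rpl3l and Rpl10l. The median member had a log2 fold change of -4.56 against 0.16 for all genes, and 74 members were lower in every brain library than in any plasma library, against 3.66% of all genes, and 0 were higher in every library, against 6.07%.

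Both subunits took part, with 49 of 51 large-subunit members (median log2 fold change -4.52) and 32 of 32 small-subunit members (median -4.85) called lower. Of the fixed reference members, Rps6, the substrate of S6 kinase, had a log2 fold change of -3.74 (SE 0.18), Rpl3, at the peptidyl transferase center, of -3.31 (SE 0.30), Rps27a, made as a fusion with ubiquitin, of -4.86 (SE 0.42), and Rpl41, the shortest ribosomal protein, of -3.76 (SE 0.28). The small-subunit share of the summed member FPKM was 31.3% ± 3.63 in brain and 35.9% ± 0.685 in plasma (SD, n = 21 each). Among the 70 members with counts in every group of both tissues, log2 fold changes ran from -5.998 for Rps12 (SE 0.55) to -0.94 for Rpl7l1 (SE 0.22).

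Rpl7l1, a nuclear paralog of Rpl7 with a role in ribosome assembly, leaned least to plasma. It had 10.3 to 60.2 CPM in brain (median 33.8) and 18.4 to 107 in plasma (median 69.6), so its tissues overlapped, and the edgeR adjusted p was 0.000375. Pooled over libraries its plasma level was 1.87-fold its brain level. The largest fitted differences were those of Rps21, Rps29 and Rpl36, proteins of both subunits, each with brain groups in which all libraries were at 0. Rps21 had 0 to 8.82 CPM in brain (median 1.14) and 76.6 to 390 in plasma (median 281). Because a fitted fold with groups at 0 depends on the prior count, pooled levels are given: plasma was 83.4-fold higher for Rps21, 40.1-fold for Rps29 and 46.7-fold for Rpl36, from 367, 3603 and 5056 brain counts. On that pooled scale Rps29 lay below Rpl9 (45.8-fold), Rpl7a (45.7-fold) and Rpl39 (41.7-fold).

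Other genes of the translation machinery were also compared between the tissues. Of RP genes outside the rule, Fau (log2 fold change -4.71), Rack1 (-4.35) and Rpl36al (-3.86) were called lower in brain. Of 18 other TOP mRNAs 18 were called lower (median -3.11), among them Tpt1 (-5.06), Pabpc1, the poly(A)-binding protein (-4.49), and Eif3e (-4.47). Initiation factors had 15 lower and 2 higher of 22 (median -1.49), and ribosome biogenesis genes 13 lower and 4 higher of 32 (median -0.76), with the nucleolar chaperone Npm1 at -4.05. The mTORC1 and S6 kinase genes had 9 lower and 7 higher of 22, from Eif4ebp1 at -5.73 to Mlst8 at 2.94. Mitochondrial ribosomal proteins (43 of 75 lower, median -1.66), nuclear oxidative phosphorylation genes (61 of 77 lower, median -1.78) and proteasome subunits (32 lower and 1 higher of 38, median -1.95) also had lower medians than all genes.

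Markers of cell types also differed between the tissues. In brain 7 of 8 neuron markers were called higher and 1 lower (median log2 fold change 13.89), and all 6 oligodendrocyte and 6 astrocyte markers were higher. In plasma 7 of 7 platelet (median -12.57), 9 of 9 red cell (-8.44), 4 of 5 T cell and 4 of 6 tested neutrophil markers were called higher, as were 6 of 6 liver genes. Microglia markers held 0.00680% to 0.157% of annotated-gene counts in brain libraries and 0.0122% to 0.0417% in plasma libraries. Endothelium markers held 0% to 0.0191% in brain and 0.0119% to 0.0454% in plasma, so the shares of both lists overlapped between the tissues. EV markers were lower in brain for 4 of 6, with Cd9 at -5.55 and Cd81, which was not called, at -0.19. The part of these cell sources in the RP difference was not tested. In bulk EVs, fewer vesicles of a cell type and less RNA per vesicle cannot be told apart.

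The annotated start of the RP genes often held a run of C and T bases, as a TOP tract does. Of the 83 members, 67 had an entry in the RefSeq promoter table (build GRCr8), and 34 of them (50.7%) had an unbroken run of 5 or more C or T bases beginning at the annotated start, against 4.69% of 27457 genes. The annotated start was a C in 50.7% of members and in 24.2% of all genes, and also in 54.5% of initiation factors, 46.2% of other TOP mRNAs and 42.4% of proteasome genes. Both a C at the start and the run were found in 24 members (35.8%), 2.63% of all genes and 0% of other TOP mRNAs. The run was found in 15.4% of 13 other TOP mRNAs, 5% of 60 mitochondrial ribosomal protein genes, 3.03% of 33 proteasome genes and 0% of 54 oxidative phosphorylation genes. The windows below, of 25 bases from 10 before the start, show members named in the results, the standard ones chosen because they have the run, with the C or T run that includes the start in capitals; they describe letters, not a site in use.
Rplp0 (chr12:46718376-46718400, minus strand): caccgcaCTTCTCTCgccaggcgtc
Rpl13 (chr19:68062504-68062528, plus strand): cggtgcccgaTCCTTTCCgctcggc
Rps23 (chr2:23814507-23814531, plus strand): ccttcctgCCTCTCTTCTCTCTTTC
Rpl35 (chr3:43165907-43165931, minus strand): CTTCCTCTTTCTCTCgaaccgggcg
Rpl10 (chrX:157205840-157205864, plus strand): gtgggagcgTCTCTTTTCCTCTggc
Rpl22 (chr5:168117951-168117975, plus strand): gcgCCCCCCTCCCTTTCTgcctcct
Rpl22l1 (chr2:113683186-113683210, plus strand): gtggatatccggttccgagttgcgc
Rpl7l1 (chr9:21695708-21695732, plus strand): cagatgcattgtgggaagcctttaa
Rpl3l (chr10:14258436-14258460, plus strand): ctggtgcctggtggggaggtccctt
The annotated start was a T, not a C, in Rpl13 and Rps23. The paralogs Rpl22l1, Rpl7l1 and Rpl3l had no such run at the annotated start, and neither had the standard members Rpl26, Rps6, Rpl41, Rps12 and Rps13.

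**Figure D2:**
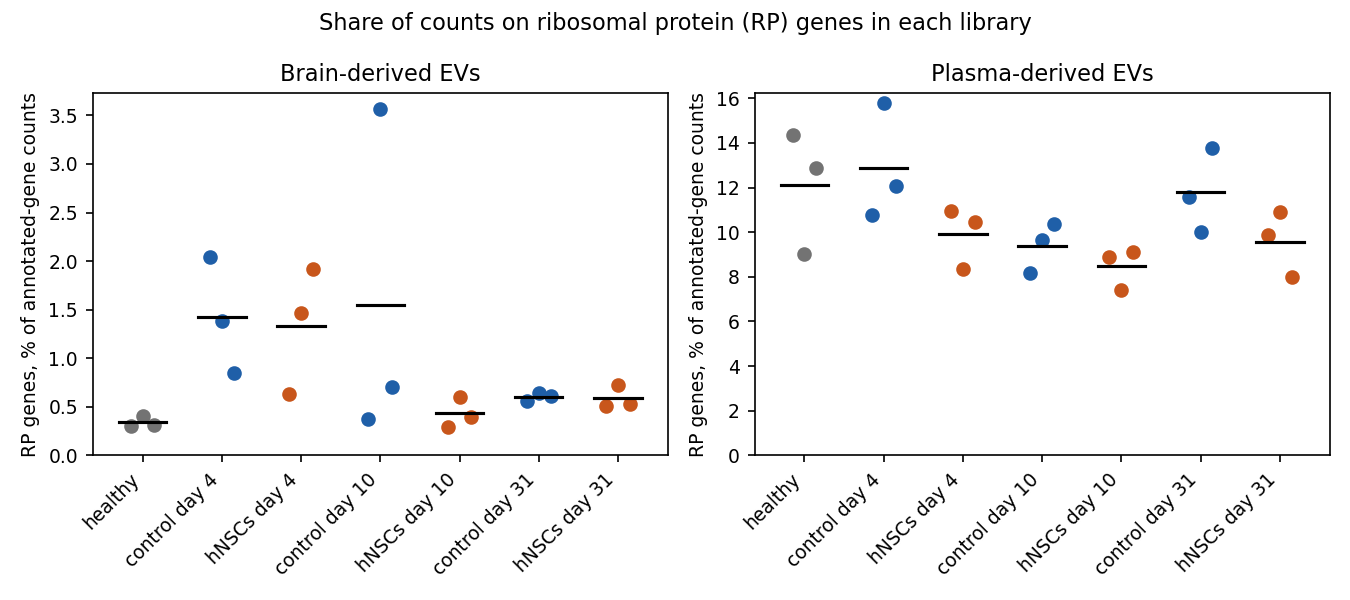
Share of annotated-gene counts on the 83 members in each library (points) with the mean of its group (line), for 7 groups of 3 rats in brain-derived (left) and plasma-derived (right) EVs, with the vertical axis in percent from 0. Brain libraries ranged from 0.295% to 3.56%, with the 3 healthy libraries at 0.306% to 0.405%, and plasma libraries from 7.40% to 15.8%.

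In brain-derived EVs the RP share was higher 4 days after stroke. The members held 0.306%, 0.405% and 0.309% of annotated-gene counts in the healthy rats and 2.04%, 1.39% and 0.847% in the control rats of day 4, so every day 4 library lay above every healthy library. The group means were 0.340% ± 0.0561 and 1.42% ± 0.598 (SD, n = 3 each), a 4.19-fold difference. With 3 rats a group an exact permutation test of such a share cannot give a p below 0.1.

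The stalk gene Rplp0 rose most clearly. Its levels were 118, 151 and 93.1 CPM in the healthy rats and 1490.3, 1022 and 654 CPM in the control rats of day 4. All day 4 values lay above all healthy values, and the difference was 8.74-fold (log2 3.13, SE 0.54, edgeR adjusted p = 0.0112, higher in 3 of 3 libraries). Rpl4 had 162, 235 and 192 CPM in healthy rats and 1005, 619 and 507 CPM on day 4. Its groups did not overlap either (log2 1.85, SE 0.40, edgeR adjusted p = 0.0252). Rpl13, a surface protein of the large subunit, had 29.5, 113 and 47.0 CPM in healthy rats and 471, 252 and 234 CPM on day 4. The day 4 values were again higher in 3 of 3 libraries (log2 2.33, SE 0.56, edgeR adjusted p = 0.0463).

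These were the 3 members called among 81 tested, all higher and none lower, against 0.73% of the 14515 genes tested that were called higher. Rpl3l and Rpl30l1 were too low to be tested. The other members leaned the same way without passing the adjusted threshold. In 79 of 81 the log2 fold change was above 0, with a median of 2.19 (quartiles 1.75 and 2.81) against 0.05 for all genes. At an unadjusted p under 0.05, 48 members were higher and 0 lower, against 8.52% and 6.31% of all genes, and in 55 every day 4 library was above every healthy library, against 13.9% of all genes. DESeq2 called 21 members, and 5.83% of all genes in either direction. Large-subunit (median 2.19) and small-subunit members (median 2.17) had like medians, although the 3 called were of the large subunit.

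Among the stalk partners, Rplp1 had 193, 135 and 116 CPM in healthy rats and 1000.2, 760 and 352 CPM on day 4, which did not overlap. Its log2 fold change was 2.25 (SE 0.70, edgeR adjusted p = 0.119, higher in 3 of 3 libraries), and that of Rplp2 was 1.92 (SE 1.29), with overlapping groups. Rps6 had 62.5, 85.1 and 90.3 CPM against 486, 158 and 184 CPM, a log2 fold change of 1.80 (SE 0.49, edgeR adjusted p = 0.0764, higher in 3 of 3). Of the most abundant members, Rps23 differed by 2.81 on the log2 scale (SE 0.91) and Rpl26 by 2.13 (SE 0.60), while Rpl35, with 213, 228 and 403 CPM against 672, 497 and 368 CPM, overlapped (log2 0.86, SE 0.38). Rpl3 (1.25, SE 0.75), Rps27a (2.33, SE 1.25) and Rpl41 (1.96, SE 0.85) did not pass the test either.

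Paralogs are given beside their partners, without a test of the difference between them. Rpl7 had a log2 fold change of 1.93 (SE 0.64) on day 4 and Rpl7l1 of 0.27 (SE 0.58), with Rpl7l1 at 13.7, 34.3 and 33.8 CPM in healthy rats and 35.6, 35.1 and 28.2 CPM on day 4. Rpl10, which completes the large subunit, had a value of 2.64 (SE 0.84), and Rpl10l, detected in 1 healthy library at 8.62 CPM, of -2.55 (SE 2.07). The Rpl10l value rested on 12 counts in that healthy library and on 0, 4 and 1 counts on day 4. Rpl22l1, which can replace Rpl22 and like it binds RNA outside the ribosome, was at 0 in the healthy group and had 43 counts on day 4, all in replicate 2, at least 9.82-fold more than a floor of 3 counts over the group. Rps27l had 0 and 48 counts, at least 11.0-fold more. Floors cover counting error only, since the reads carried no molecular identifiers, and none of these genes passed the test.

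The number of called members depended on single libraries. It was 0 without control day 4 replicate 1, 0 without healthy replicate 1, 0 without healthy replicate 3, 1 without control day 4 replicate 2, 2 without healthy replicate 2 and 4 without control day 4 replicate 3, while the median log2 fold change stayed between 1.81 and 2.48. In the same order, 0.0676%, 0%, 0%, 0.336%, 0.236% and 0.641% of all genes were called. Rplp0 had a log2 fold change of 2.79 without control day 4 replicate 1 (edgeR adjusted p = 0.0636), 3.08 without healthy replicate 1 (0.0892) and 2.94 without healthy replicate 3 (0.0630). The count was 32 without the 2 libraries that stood apart, against 3.92% of all genes. Neither is in these groups, but all brain groups share 1 estimate of the spread in the model. Control day 10 replicate 2 was set apart by the members' own values, so that count is not independent of the choice. With only these groups fitted the count was 43, against 4.3% of all genes.

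Markers of several cell types also differed on day 4. The 8 microglia markers together held 0.00855%, 0.00680% and 0.00721% of annotated-gene counts in healthy brain and 0.0990%, 0.0569% and 0.0469% on day 4. All day 4 libraries were above all healthy ones, 2 of 8 markers were called higher, C1qc (log2 5.71, SE 0.96) and C1qb (4.22, SE 0.93) of the complement complex C1q, and C1qc was the most abundant on day 4, while Cx3cr1, C1qc and Aif1 were at 0 in healthy replicate 1 and no marker was at 0 on day 4. The 8 neuron markers held 0.621%, 0.669% and 0.491% in healthy brain and 0.212%, 0.340% and 0.397% on day 4, led by Nefl, with none at 0 and 0 of 8 called by edgeR (4 at an unadjusted p under 0.05). The 6 astrocyte markers, led by Gfap, held 0.123%, 0.144% and 0.117% in healthy brain and 0.351%, 0.334% and 0.381% on day 4, with Gfap called (log2 2.25, SE 0.36). The 6 oligodendrocyte markers, led by Mbp, held 0.2799%, 0.307% and 0.243% and then 0.606%, 0.430% and 0.394%, with none called. The annotated share of all counts was 7.11%, 20.9% and 13.6% in healthy brain and 25.3%, 23.2% and 22.0% on day 4, also without overlap. The nuclear RNA Snhg11 held 0.0550%, 0.0547% and 0.0682% in healthy brain and 0.0228%, 0.0275% and 0.0433% on day 4. The 6 EV markers, led by Sdcbp or Pdcd6ip with none at 0, held 0.0339%, 0.0355% and 0.0249% and then 0.0495%, 0.0451% and 0.0383%, and neither Snhg11 nor any EV marker was called. The part of these differences in the RP result was not tested. The 7 neutrophil markers held 0%, 0.000178% and 0.000339% in healthy brain and 0.00454%, 0.00172% and 0.00221% on day 4, without overlap, with S100a8, Mpo and Elane at 0 in all 6 libraries and Csf3r or S100a9 the most abundant on day 4, and 1 of the 7 was tested and not called. The part of the neutrophil markers was not tested. The 7 platelet markers were close to 0 in these brain libraries, at 0%, 0% and 0.00021% in healthy rats and 0%, 0.000992% and 0.000964% on day 4.

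Related gene groups were looked at in the same comparison on day 4, without a test between groups. Of 18 other TOP mRNAs, 1 was called higher, Pabpc1 (log2 2.21, SE 0.46), and their median was 1.17. Of 32 ribosome biogenesis genes, 1 was called higher, the pseudouridine synthase Dkc1 (log2 1.53, SE 0.32), with a median of -0.13. No gene was called among 22 initiation factors (median 0.51), 22 mTORC1 and S6 kinase genes (-0.25), 74 mitochondrial ribosomal proteins (0.41), 73 oxidative phosphorylation genes (0.18) and 37 proteasome subunits (0.11), of which edgeR gave 3, 5, 1, 3 and 1 genes an unadjusted p under 0.05.

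**Figure D3:**
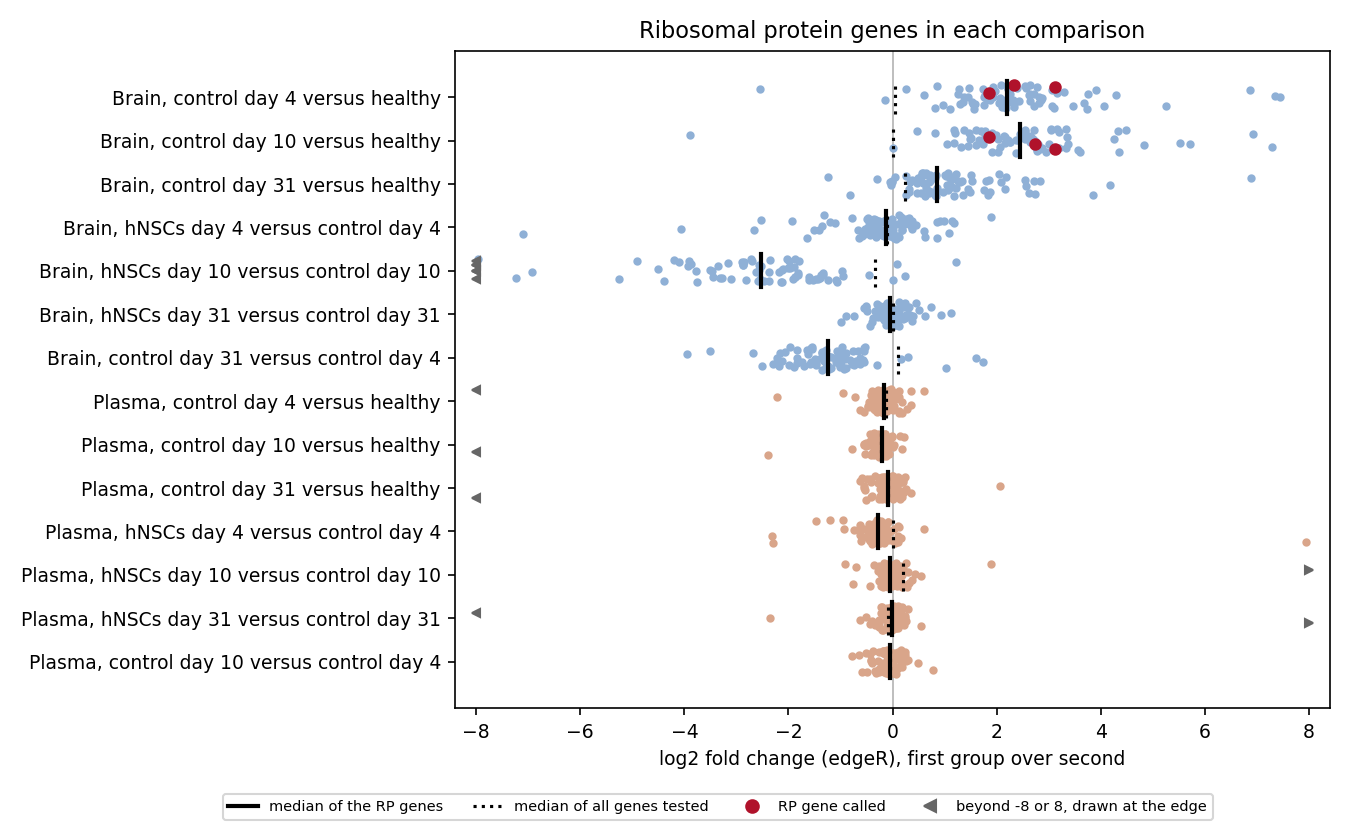
Log2 fold change of each tested member (points, red where called) in 14 comparisons within brain (blue) and plasma (tan), with the median of the members as a solid line and the median of all genes tested as a dotted line; points beyond -8 or 8 are drawn at the edge. The members' medians were 2.19 and 2.45 for brain on days 4 and 10 against healthy and -2.53 for hNSCs against control on day 10, and within 0.30 of 0 in all plasma comparisons.

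On day 10 after stroke the same healthy brain libraries served as reference, and the members were spread widely within the control group. The RP share was 0.372%, 3.56% and 0.701% in the 3 rats (mean 1.54% ± 1.75, SD), so replicate 1 lay inside the healthy range of 0.306% to 0.405% and replicate 2 far above. Rplp0 had 252, 1621 and 542 CPM, above the healthy values in 3 of 3 libraries (log2 2.74, SE 0.54, edgeR adjusted p = 0.0242). Rpl4 had 274, 1332 and 517 CPM, also above in 3 of 3 (log2 1.85, SE 0.40, edgeR adjusted p = 0.0359). Rpl29, a small protein at the surface of the large subunit, had 23.7, 40.1 and 23.4 CPM in healthy rats and 46.0, 658 and 63.2 CPM on day 10. The lowest day 10 value was just above the highest healthy one (log2 3.13, SE 0.72, edgeR adjusted p = 0.0473, higher in 3 of 3).

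These 3 were the members called of 81, against 0.537% of all genes called higher, 0.0344% called lower and 0.572% called in either direction. The median log2 fold change was 2.45 (2.48 with members at 0 set at their bound) against 0.00 for all genes, 55 members were higher and 0 lower at an unadjusted p under 0.05 (7.54% and 5.13% of all genes), and DESeq2 called 29 (4.22%). In 13 members every day 10 library was above every healthy one and in 0 below, against 7.05% and 7.03% of all genes. The calls rested on control day 10 replicate 2. Without it 0 members were called, against 0.00673% of all genes called higher. The median was then 0.46, and the log2 fold changes were 1.73 for Rplp0 (edgeR adjusted p = 0.279), 0.91 for Rpl29 and 1.02 for Rpl4. Without healthy replicate 1, 2 or 3 the count was also 0, against 0%, 0.0270% and 0.0337% of all genes called higher. Without control day 10 replicate 1 it was 26 (1.86% of all genes higher) and without replicate 3 it was 5 (0.362%). Limma on log2(FPKM + 1), and edgeR on these groups alone, each called 0 members and 0% of all genes.

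In that replicate 2 the 8 microglia markers also held the most, 0.157% against 0.0196% and 0.0700% in replicates 1 and 3, with Aif1 the most abundant there and at 0 in replicate 1. The neuron markers, led by Nefl with none at 0, were lowest there, at 0.15001% against 0.526% and 0.295%, the oligodendrocyte markers, led by Mbp with Mog at 0 in replicate 3, were at 1.19% against 0.290% and 0.415%, and Snhg11 was at 0.0108% against 0.0563% and 0.0421%. Their part in the RP values was not tested. Over the group, 4 of 8 microglia markers were called higher, among them C1qc (log2 5.14), C1qb (3.99) and C1qa (3.22). Pabpc1 (1.95), Dkc1 (1.496) and Gfap (1.99) were called as on day 4, and the medians were 1.29 for other TOP mRNAs, 0.31 for mitochondrial ribosomal proteins, 0.28 for oxidative phosphorylation genes and 0.50 for proteasome subunits. Without control day 10 replicate 2 none of these genes was called by edgeR. Pabpc1 was then at 0.87 (SE 0.35), Dkc1 at 1.71 (SE 0.32), Gfap at 1.79 (SE 0.36) and C1qc at 4.35 (SE 0.92), and the medians of the same lists were -0.01, -0.37, -0.29 and -0.23.

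By day 31 the RP share was 0.557%, 0.644% and 0.611% (mean 0.604% ± 0.0438, SD), 1.78-fold the healthy mean and again above every healthy library. Of all counts, annotated or not, the members held 0.231%, 0.277% and 0.186%, against 0.0218%, 0.0847% and 0.0422% in healthy rats, a larger difference. On that scale the control rats of day 4 had 0.516%, 0.321% and 0.186%, which overlapped day 31. By edgeR 0 of 81 members were called, 5 had an unadjusted p under 0.05 and DESeq2 called 0 (1.21% of all genes), while by edgeR 0.00689% of all genes, which is Gfap alone (log2 2.50), were called. All 5 were higher and 0 lower, against 7.14% of all genes at that threshold, 5.3% higher and 1.84% lower. They were Rplp0 (log2 1.06, SE 0.51), Rpl12 (2.63, SE 1.14), Rpl23a (2.16, SE 0.89), Rps29 (4.18, SE 1.57) and Rpl22l1. Healthy counts were 0, 9 and 0 for Rps29 and 25, 45 and 0 for Rpl12, so these fitted folds rest on few healthy counts. Rplp0 had 209, 348 and 197 CPM, each above the healthy values. Rpl22l1 was found in each day 31 library, at 2.28, 3.30 and 3.00 CPM, at least 8.48-fold above the healthy floor. The median member was at 0.85 against 0.24 for all genes, 74 of 81 were above 0 against 63.1% of all genes, and 43 were higher in every library and 0 lower, against 18.9% and 6.39% of all genes. Limma on log2(FPKM + 1) called 75 members higher, but there the median of all genes was itself at 0.79 and 66.1% of all genes were called. The microglia markers held 0.0286%, 0.0374% and 0.0194% on day 31, led by Csf1r with none at 0, and the astrocyte markers 0.424%, 0.496% and 0.393%, led by Gfap with none at 0. Oligodendrocyte markers held less than in healthy brain, at 0.199%, 0.209% and 0.181%, led by Mbp with none at 0. Neutrophil markers held 0.00202%, 0.00263% and 0.000721%, led by Csf3r, with S100a8, Mpo and Elane at 0. EV markers held 0.0463%, 0.0390% and 0.0406%, and platelet markers 0.000642%, 0.00146% and 0.000533%. None of these lists overlapped healthy brain, nor did the annotated share of 41.4%, 43.0% and 30.3%, and their part in the RP values was not tested.

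Set directly against day 4, the control rats of day 31 had lower RP levels by CPM that did not pass the adjusted threshold. Rplp0 was lower in 3 of 3 libraries (log2 -2.07, SE 0.52, edgeR adjusted p = 0.108). EdgeR called 0 of 81 members, against 0.248% of all genes, 15 were lower at an unadjusted p under 0.05, against 3.01% of all genes, and DESeq2 called 2, Rplp0 (-2.11) and Rps19 (-4.003), against 1.68% of all genes. The median member was at -1.23 against 0.11 for all genes, 76 of 81 were below 0, and in 40 the groups did not overlap, against 10.1% of all genes. With only these groups fitted edgeR called 20 members, against 6.34% of all genes, and without the 2 libraries that stood apart it called 5, against 0.855%. On FPKM the members were lower only relative to all genes: limma on log2(FPKM + 1) gave a member median of -0.00 against 0.49 for all genes, and on log2(FPKM + 0.1) of -0.00 against 1.10. The former called 2 members higher and 1 lower, against 33.5% of all genes called. The microglia markers (8 detected, led by C1qc on day 4 and Csf1r on day 31) held 0.0990%, 0.0569% and 0.0469% on day 4 and 0.0286%, 0.0374% and 0.0194% on day 31, with 0 of 8 called by edgeR and 2 at an unadjusted p under 0.05. The oligodendrocyte markers (6 detected, led by Mbp) held 0.606%, 0.430% and 0.394% and then 0.199%, 0.209% and 0.181%, with 1 of 6 called lower. Higher on day 31 were the neuron markers (8 detected, led by Nefl), at 0.452%, 0.422% and 0.590% against 0.212%, 0.340% and 0.397%, and the astrocyte markers (6 detected, led by Gfap), at 0.424%, 0.496% and 0.393% against 0.351%, 0.334% and 0.381%, with 0 called by edgeR and 2 and 0 at an unadjusted p under 0.05. The annotated share was 41.4%, 43.0% and 30.3% against 25.3%, 23.2% and 22.0%. None of these overlapped between the days, no marker of these lists was at 0, and their part was not tested. The 9 red cell markers held 0.0190%, 0.0246% and 0.0105% on day 4 and 0.0504%, 0.0494% and 0.0411% on day 31. For Snhg11 the values were 0.0228%, 0.0275% and 0.0433%, then 0.0587%, 0.0498% and 0.0708%. The 5 endothelium markers held 0.0158%, 0.0142% and 0.0112%, then 0.0110%, 0.00735% and 0.00756%. These did not overlap either, and their part was not tested.

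The hNSCs comparisons asked whether the cell transplant altered these mRNAs in brain at each day. One day after injection, on day 4, the RP share was 0.630%, 1.46% and 1.92% in hNSCs rats, overlapping the control values of 2.04%, 1.39% and 0.847%. Rplp0 had 848, 2038 and 1466 CPM in hNSCs rats, which also overlapped the controls (log2 0.46, SE 0.50). By edgeR 0 of 81 members were called, 2 had an unadjusted p under 0.05 and 0% of all genes were called, and DESeq2 called 0 members and 1.52% of all genes. Both were lower, against 7.53% of all genes at that threshold, 1.98% higher and 5.55% lower. They were Rps12 (log2 -4.06, SE 1.85) and Rps21. Rps12 had 402, 150 and 29 counts in controls and 0, 0 and 24 in hNSCs rats, so its fitted fold rests on few counts. Rps21 had 17, 24 and 0 counts in controls (41 in all) and 0 in hNSCs rats. It was at least 8.79-fold lower, a bound that rests on control replicates 1 and 2. The median member was at -0.13 against -0.11 for all genes, and 0 members were higher and 2 lower in every library, against 2.62% and 6.82% of all genes. The median changed sign with single libraries, to 0.21 without control day 4 replicate 1 and 0.22 without hNSCs day 4 replicate 1.

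On day 10 the hNSCs rats had RP shares of 0.295%, 0.604% and 0.398% (mean 0.432% ± 0.157, SD), within or below the range of 0.372% to 3.56% in controls. Rplp0 had 221, 587 and 335 CPM against 252, 1621 and 542 CPM in controls (log2 -1.08, SE 0.51), and Rplp1 had 95.9, 213 and 220.1 CPM against 95.0, 1958 and 224 CPM (log2 -2.12, SE 0.70). In both genes the groups overlapped and only control replicate 2 stood far above. By edgeR 0 of 81 members were called, with 0% of all genes called and a smallest adjusted p of 0.123. At an unadjusted p under 0.05, 56 members were lower and 0 higher, against 10.8% and 2.59% of all genes, and DESeq2 called 24 lower, against 4.38% of all genes. The median member was at -2.53 (-2.43 with members at 0 set at their bound) against -0.34 for all genes, and in 12 the groups did not overlap, against 7.06% of all genes. The median was -0.46 without control day 10 replicate 2, -2.19 without hNSCs day 10 replicate 3 and -0.37 without both. EdgeR called 7 members lower without control day 10 replicate 1 (0.235% of all genes), 11 without hNSCs day 10 replicate 1 (4.82% of all genes), and 0 without any other library of these groups or without both that stood apart. Several small members had counts in controls and none in the hNSCs group, and most of those counts lay in control replicate 2. The control counts in replicates 1, 2 and 3 were 5, 791 and 35 for Rps29, 7, 588 and 0 for Rpl36a, 5, 499 and 24 for Rpl36, and 31, 271 and 104 for Rps13. The microglia markers held 0.0234%, 0.0936% and 0.0464% in hNSCs rats, with Cx3cr1 and Tmem119 at 0 in replicate 3 and C1qa or C1qc or Csf1r the most abundant, overlapping the controls, and their part was not tested.

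On day 31 the brain of hNSCs and control rats differed little in these genes. The RP share was 0.506%, 0.724% and 0.532% (mean 0.587% ± 0.119, SD) in hNSCs rats, around the control mean of 0.604%. Rplp0 had 183, 308 and 120.0 CPM (log2 -0.30, SE 0.50), and its groups overlapped. By edgeR 0 of 81 members were called and 0 had an unadjusted p under 0.05, DESeq2 called 0, and 0% of all genes were called. The median member was at -0.05 against 0.00 for all genes, and the groups did not overlap in 3 members that were higher and 2 that were lower, against 3.29% and 2.67% of all genes. The median was 0.02 without control day 31 replicate 2, 0.03 without hNSCs day 31 replicate 1 and 0.02 without hNSCs day 31 replicate 3. It was 0.06 with limma on log2(FPKM + 1) or log2(FPKM + 0.1). Tests of the hNSCs effect between days, 3 in brain and 3 in plasma, called 0 members by edgeR. Of all genes, edgeR called 0 of 14515 in each brain test. In plasma it called 1 of 14720 between days 10 and 4, 1 between days 31 and 4 and 0 between days 31 and 10. In brain 27 members had an unadjusted p under 0.05 between days 10 and 4 and 28 between days 31 and 10, against 8.63% and 6.23% of all genes. DESeq2 called 8 and 7 members there, against 2.82% and 1.54% of all genes. Between days 31 and 4 no member had an unadjusted p under 0.05 or was called by DESeq2, against 614 and 106 of the 14515 genes tested. The brain tests that include day 10 share its control group with replicate 2.

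In plasma-derived EVs the RP share of control rats after stroke ran from 8.17% to 15.8%, against 9.04% to 14.4% in healthy rats. The share was 14.4%, 9.04% and 12.9% in healthy rats, 10.8%, 15.8% and 12.1% in controls on day 4, 8.17%, 9.64% and 10.4% on day 10, and 11.6%, 10.0% and 13.8% on day 31. Each stroke group overlapped the healthy group. Rplp0 had 3834, 2654 and 3611 CPM in healthy rats and 3171, 6431 and 3375 CPM on day 4 (log2 0.36, SE 0.32), and Rps6 had 1921, 2293 and 1886 CPM in healthy rats and 1333, 1512 and 1698 CPM on day 10 (log2 -0.42, SE 0.28), lower in 3 of 3 libraries without passing the test. Median log2 fold changes of the members were -0.17, -0.21 and -0.10 on days 4, 10 and 31, against -0.12, -0.22 and -0.09 for all genes. The day 4 median changed sign to 0.02 with limma on log2(FPKM + 1) or log2(FPKM + 0.1). The day 31 median changed sign to 0.05 without control day 31 replicate 2, to 0.04 with DESeq2 and to 0.22 with limma on either scale.

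By edgeR 0 of 83 members were called on day 4 (0.0679% of all genes), 0 on day 10 (0% of all genes) and 0 on day 31 (0% of all genes). At an unadjusted p under 0.05 there were 1, 2 and 1 members, against 5.86%, 5.6% and 4.75% of all genes. DESeq2 called 1, 2 and 1, against 6.16%, 8.25% and 4.48% of all genes, which were Rpl3l each time and Rpl34 on day 10 (log2 -0.73). On day 10, 21 members were lower in every library than in any healthy library, against 8.61% of all genes, as were 9 on day 4 (8.4%) and 5 on day 31 (7.84%). The 9 red cell markers, led by Hba2 with none at 0, held 12.2%, 15.7% and 15.3% of annotated-gene counts on day 10 and 6.43%, 3.60% and 9.23% in healthy plasma, without overlap, with 0 called by edgeR and 7 at an unadjusted p under 0.05. Their part in the RP values was not tested. Between controls of days 10 and 4, edgeR called 0 members (0.387% of all genes), 0 had an unadjusted p under 0.05 and DESeq2 called 0. In that comparison 5 of 9 red cell markers were called higher, with Alas2, the first enzyme of heme synthesis, at 4.96 and Hba1 and Hbb of hemoglobin at 3.19 and 3.10 on the log2 scale, while the median RP gene was at -0.05, or at 0.11 without control day 4 replicate 2.

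The hNSCs groups had plasma RP shares of 10.9%, 8.33% and 10.5% on day 4, 8.87%, 7.40% and 9.13% on day 10, and 9.85%, 10.9% and 7.97% on day 31, each overlapping its control group. Members' medians against controls were -0.29, -0.05 and -0.00 on days 4, 10 and 31, against 0.00, 0.21 and -0.10 for all genes. The day 10 median was 0.04 without hNSCs day 10 replicate 3. The day 31 median was 0.21 without control day 31 replicate 3, 0.03 without hNSCs day 31 replicate 2 or replicate 3, and 0.02 with the replicate block. By edgeR 0 members were called on day 4 (0.00679% of all genes), 0 on day 10 (0% of all genes) and 0 on day 31 (0% of all genes). At an unadjusted p under 0.05 there were 2, 1 and 1 members, against 3.94%, 4.06% and 8.57% of all genes, and DESeq2 called 1, 1 and 2, against 5.93%, 7.76% and 11.3%. On day 4 the members at an unadjusted p under 0.05 were Rpl24 (log2 -0.63, SE 0.30) and Rps9 (-1.19, SE 0.45), and Rplp0 was lower than controls in 3 of 3 libraries (-0.58, SE 0.32, edgeR adjusted p = 0.814). In 6 members the hNSCs group of day 4 lay wholly below controls, against 4.36% of all genes. On that day 73 of 83 members were below 0, while 49.2% of all genes were above 0. The median stayed between -0.45 and -0.11 with each library left out. Plasma groups were not uniform either. Replicate 2 of hNSCs day 4, with the fewest plasma counts (11878367), was lowest of its group for 71 of 83 members. Replicate 3 of control day 31 was highest of its group for 72.

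The members that DESeq2 called in plasma were mostly paralogs present in some libraries and absent from others. Rpl3l had 13.3, 2.88 and 4.41 CPM in healthy rats, from 468, 33 and 104 counts, and 0 in all 9 control libraries. Against the floor of 3 counts it was at least 208-fold lower on day 4, 160-fold on day 10 and 231-fold on day 31, bounds that rest mostly on healthy replicate 1, and edgeR did not call it (adjusted p = 0.742, 0.750 and 0.844, lower in 3 of 3 libraries each time). In hNSCs rats Rpl3l came from 1 library on day 4 (4.32 CPM), from replicates 2 and 3 on day 10 (7.24 and 14.5 CPM) and from 1 library on day 31 (8.21 CPM). Rpl10l had 9.43, 4.31 and 61.0 CPM in controls of day 31, from 276, 90.0 and 1857 counts, and 0 in hNSCs rats, at least 636-fold lower, a bound that rests mostly on control replicate 3, and edgeR did not call it (adjusted p = 0.522). The groups did not overlap for Rpl10l on day 31, but both Rpl3l and Rpl10l varied between single rats of the same group. Rpl10l had 0, 2 and 111 counts in controls of day 4 and was at 0 in 8 of 21 plasma libraries. Rpl22l1 had 88.0, 61.0 and 67.9 CPM in healthy plasma and 50.9, 51.2 and 46.6 CPM in controls of day 10 (log2 -0.54, SE 0.49), lower in 3 of 3 libraries without passing the test.

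The effect of stroke was also compared between the tissues. The difference of the log2 fold changes, brain minus plasma, had a member median of 2.36 on day 4, 2.53 on day 10 and 1.21 on day 31, against 0.31, 0.32 and 0.71 for all genes. By edgeR 0 of 83 members were called on any day, against 0.159%, 0.13% and 0.0177% of all genes, with 43, 47 and 8 at an unadjusted p under 0.05. The shares of all genes at that threshold were 10.3%, 10.8% and 10.1%, so the day 31 count was no larger than the share of all genes. DESeq2 called 15, 25 and 1 members, against 8.04%, 9.39% and 6.03% of all genes. For Rplp0 the day 4 difference was 2.81 (SE 0.67, edgeR adjusted p = 0.0715). Without the 2 brain libraries that stood apart, the member medians were 2.36, 0.76 and 1.22, and edgeR called 11, 0 and 0 members, against 0.577%, 0.04% and 0.0286% of all genes. With all libraries, no member's difference between the tissues in the response to stroke was called by edgeR.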

How the data were processed

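As deposited, the mRNA counts are unnormalized integers, from reads the authors had aligned to Rnor_6.0 by Bowtie2; the counting tool, strand setting and versions are not given. The deposited FPKM values were made by the authors with StringTie. New genes assembled by the authors were left out except in an alternative. Plasma is used for what the extraction text calls serum. Replicates are separate rats.

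Tests used edgeR 4.0.16 under R 4.3.3 (TMM, filterByExpr, quasi-likelihood, Benjamini-Hochberg over all genes tested), in 1 model per tissue and, for brain versus plasma, 1 model of 42 libraries. Alternatives were DESeq2 1.42.0, limma 3.58.1 on log2(FPKM + 1) and log2(FPKM + 0.1), no filter, new genes kept, 10 hemoglobin genes left out, a replicate block, fits of the compared groups alone, and omission of each library in turn. Python 3.11.15, pandas 2.3.3, numpy 2.4.6 and matplotlib 3.10.9 made tables and figures.

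The members and gene lists were chosen with earlier results of these data known. Named genes are the stalk genes, the paralogs and their partners, Rps6, Rpl3, Rps27a and Rpl41, up to 3 called members per direction, the 5 highest and lowest per tissue, and the 3 leaning most to each tissue. Rps12, Rps13, Rps19, Rps9, Rpl7a, Rpl9, Rpl12, Rpl23a, Rpl24, Rpl34, Rpl36a and Rpl39 were named after their values were seen. Some results that these rules cover are not reported here. Brain and plasma profiles of the same rat were hardly more alike than those of different rats: the median r was 0.00900 in 21 pairs and 0.000304 in 420 pairs.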

Additional observations from a re-analysis of the deposited data

How the results depend on the processing

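Numbers of RP genes called are given under alternatives that moved them.

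In brain, control day 4 versus healthy gave 3 members by edgeR, 8 without the filter (0.936% of all genes) and 2 with new genes kept (0.643%). The replicate block gave 9 (1.24%) and DESeq2 gave 21. Limma on log2(FPKM + 1) and log2(FPKM + 0.1) gave 46 and 34 (3.86% and 4.76%), and only these groups gave 43. The count was 32 without the libraries that stood apart, and 0 to 4 with each library left out. Control day 10 versus healthy gave 3 (0.572% of all genes), then 5 without the filter (0.618%) and 1 with new genes kept (0.278%). The replicate block gave 2 (0.365%), DESeq2 29 (4.22%), and limma at either pseudocount 0 (0%). Only these groups gave 0 (0%). Without the libraries that stood apart the count was 0 (0.0673%), and with each library left out it was 0 to 26. Control day 31 versus healthy gave 0, then 75 and 70 of 79 with limma, where 66.1% and 85.8% of all genes were called. Control day 31 versus day 4 gave 0, then 1 with the replicate block, 2 with DESeq2, 3 (2 higher, 1 lower) and 1 (higher) with limma, 20 with only these groups and 5 without the libraries that stood apart. The shares of all genes called under these alternatives were 0.303%, 1.68%, 33.5%, 15.2%, 6.34% and 0.855%, in that order. The hNSCs day 10 comparison gave 0, then 24 with DESeq2 and 0 to 11 with each library left out.

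In plasma DESeq2 gave 1, 2 and 1 members against healthy on days 4, 10 and 31, and 1, 1 and 2 for hNSCs against control, where edgeR gave 0. In both tissues together, DESeq2 gave 17 for the hNSCs effect between days, of which 8 and 7 were in brain. For stroke in brain minus plasma DESeq2 gave 15, 25 and 1, and edgeR gave 11 on day 4 without the libraries that stood apart. Brain versus plasma gave 81 (54.3% of all genes called), then 82 with the rat as block (58.4%) and 82 with limma (57.5%). In the other comparisons of groups within a tissue the range with each library left out was 0 to 0; brain versus plasma and the differences between effects were not refitted this way.

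Replicate numbers join different rats: the median r of libraries with the same number was -0.0106 in brain and -0.00626 in plasma. The alternative without the libraries that stood apart was chosen after seeing the data. Control day 10 replicate 2 was set apart by the members' own values, so the counts of called members under this alternative are not independent of that choice. Why the tools differ was not pursued, and the cause was not tested.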
